A study of Mus musculus with 2 samples.

Results

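The 7 genes that encode NMDA receptor subunits, Grin1, Grin2a, Grin2b, Grin2c, Grin2d, Grin3a and Grin3b, were followed in RNA from mouse hippocampus, gene by gene and splice form by splice form. They were taken by symbol, and all 7 were found among the 55536 annotated genes measured, with 39 of the 141862 annotated transcripts. Total RNA came from the hippocampus of female B6CASTF1/J mice aged 2 months, which are first-generation hybrids of C57BL/6J and the wild-derived strain CAST/EiJ. The tissue term in the labels speaks of a layer, but no layer is named. The series holds 1 group of 2 libraries, replicates 1 and 2, each from 300 ng of RNA, with no treatment and no other tissue. The labels call them biological replicates but point both to 1 donor record and do not say whether animals were pooled, so part of their spread may be technical. Reads were not split by parental allele. With 1 group the design holds no contrast of conditions, so the values are levels and shares with their spread over the 2 libraries, with no p-values.

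NMDA receptors are glutamate-gated cation channels built from 4 subunits. GluN1, the product of Grin1, is needed in every receptor and binds the co-agonists glycine and D-serine. The GluN2 subunits (Grin2a to Grin2d) bind glutamate and set how fast the channel closes and how strongly magnesium blocks it, and the GluN3 subunits (Grin3a, Grin3b) bind glycine and lower calcium entry. In the hippocampus the receptor opens when transmitter release meets depolarisation, and its calcium current starts long-term potentiation, a lasting gain in synaptic strength. The RNA of Grin1 is spliced at 3 places: the N1 cassette in the extracellular amino-terminal domain, the C1 cassette in the cytoplasmic tail, and the choice between the C2 and C2' ends of the tail. The 8 combinations are named GluN1-1a to GluN1-4b, where a lacks N1 and b holds it, 1 holds C1 and C2, 2 holds C2 without C1, 3 holds C1 and C2', and 4 holds C2' without C1.

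The alternative pieces of Grin1 and of Grin3a are shown because the splice results below turn on them. They were read from the GENCODE M21 transcript sequences (mm10, minus strand for both genes), 5' to 3', as RNA sense with T for U. In the N1 exon (chr2:25311343-25311405, 63 bases, exon 4 of 21 in the annotated form that holds both cassettes) capitals mark the 6 codons for lysine or arginine. This exon is known to speed channel closing and to reduce block by protons.
N1 exon: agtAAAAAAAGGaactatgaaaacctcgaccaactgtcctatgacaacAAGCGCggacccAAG
In the C1 exon (chr2:25294438-25294548, exon 20) capitals mark the 12 lysine or arginine codons. They include 3 arginine codons in a row, the known signal that keeps unassembled subunits in the endoplasmic reticulum.
C1 exon: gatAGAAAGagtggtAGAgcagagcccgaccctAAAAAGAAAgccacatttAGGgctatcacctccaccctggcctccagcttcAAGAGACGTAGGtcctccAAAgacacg
C2 and C2' are the coding ends of the last exon from acceptor sites that lie 356 bases apart. For C2 (chr2:25292368-25292484, 117 bases with the stop) capitals mark the stop codon. For C2' (chr2:25292060-25292128, 69 bases with the stop) they mark the last 4 codons before the stop, which encode a known binding site for PDZ domain scaffolds.
C2 end: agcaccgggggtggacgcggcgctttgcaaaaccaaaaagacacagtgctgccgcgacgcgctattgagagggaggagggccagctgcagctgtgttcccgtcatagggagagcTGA
C2' end: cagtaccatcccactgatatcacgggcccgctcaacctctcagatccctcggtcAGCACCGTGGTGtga
In Grin3a the alternative piece is 60 bases (chr4:49665566-49665625), added by an upstream acceptor site, and capitals mark its 4 lysine or arginine codons.
Grin3a insert: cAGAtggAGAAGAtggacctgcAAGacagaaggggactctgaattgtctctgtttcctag

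The libraries held 29490868 and 30691881 expected counts on annotated genes after rounding, where an expected count is a read count in which a read that fits several transcripts is shared among them. Levels are in TPM, which is scaled per transcript length and to a fixed library sum so that genes can be compared. Markers of the labelled tissue were present: all 12 hippocampal field markers were detected, at 1 TPM or more in both libraries, with summed TPM of 1071 and 1083. GABAergic neuron markers (7 of 7, summed 420.7 and 398.4 TPM), astrocyte markers (7 of 7, 1372 and 1437), oligodendrocyte markers (6 of 6, 930.4 and 1022) and microglia markers (6 of 6, 107.4 and 102.5) were detected as well. Thalamus markers were low (5 of 5, 40.1 and 43.3). Cerebellar granule cell markers were mostly undetected (2 of 6, 18.0 and 18.7), and no motor neuron marker was detected (0 of 6, 0.54 and 0.34), with Mnx1 and Isl1 at 0 counts in both libraries. As in any bulk sample, fewer cells of a type and less RNA per cell cannot be told apart.

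Grin1 was the most abundant subunit gene. Grin1 (ENSMUSG00000026959.13, chr2:25291181-25319187, minus strand) stood at 182.9 TPM in replicate 1 and 175.3 in replicate 2, from 14894 and 14876 expected counts. Its mean of 179 ± 5.37 TPM (SD, n = 2) ranked 309 among protein-coding genes, above 98.6% of them. Grin1 carried 35.0% ± 2.20 of the summed TPM of the 7 genes.

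Grin2a and Grin2b, the GluN2 genes of the mature forebrain, followed close behind. Grin2a (ENSMUSG00000059003.12, chr16:9567898-9995560, minus strand) stood at 145.1 and 160.4 TPM, from 29475 and 33148 expected counts. Grin2b (ENSMUSG00000030209.14, chr6:135713233-136173511, minus strand) stood at 136.7 and 151.1 TPM, from 41475 and 45710 expected counts. In each library Grin2a was above Grin2b, yet the lower value of Grin2a lay below the higher value of Grin2b, so the ranges of the 2 genes overlapped. They ranked 405 and 445 among protein-coding genes and carried 29.8% ± 1.14 and 28.1% ± 1.07 of the summed TPM. Read counts order these genes the other way: Grin2b held 46.3% ± 0.338 of the counts of the 7 genes, Grin2a 33.3% ± 0.718 and Grin1 15.9% ± 0.987. The effective length is the number of positions where a read can start, averaged over a gene's transcripts with each weighted by its TPM. Its mean over the libraries was 13677 bases for Grin2b, 9250 for Grin2a and 3753 for Grin1.

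**Figure D1:**
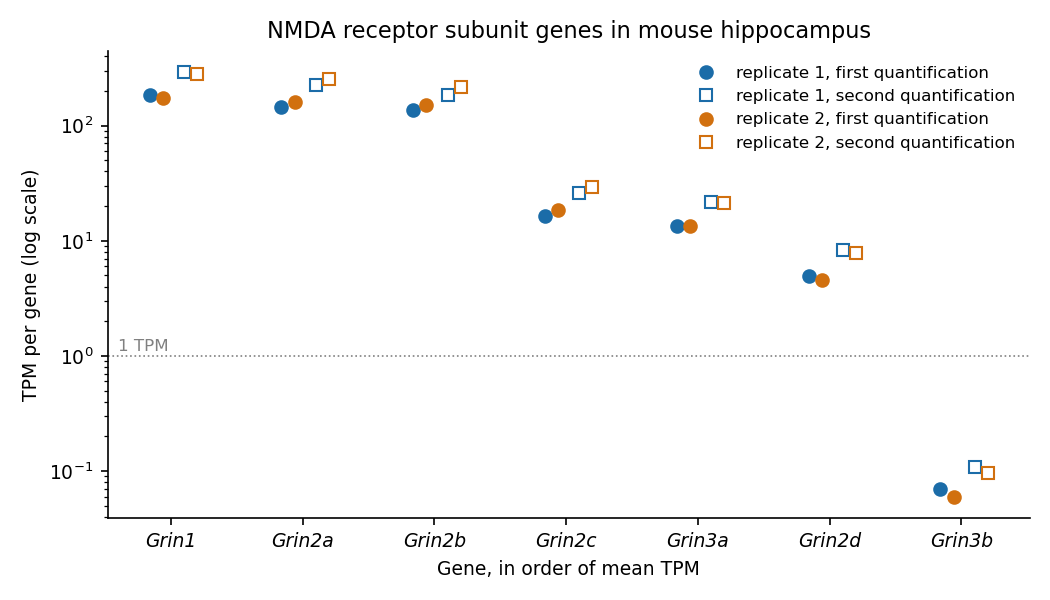
TPM of each NMDA receptor subunit gene on a log axis, for each library and for both of the authors' quantifications; points are single libraries, and the dotted line is the detection minimum of 1 TPM. Grin1, Grin2a and Grin2b lay between 136.7 and 182.9 TPM in the first quantification, Grin2c, Grin3a and Grin2d between 4.54 and 18.5, and Grin3b at or below 0.07.

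The other subunit genes were far lower. Grin2c, best known from cerebellar granule cells and astrocytes, stood at 16.5 and 18.5 TPM (ENSMUSG00000020734.13, chr11:115249169-115267243, minus strand; 1601 and 1868 counts). Grin2d, a GluN2 gene of interneurons and of subcortical regions that gives slowly closing channels, stood at 4.94 and 4.54 TPM (ENSMUSG00000002771.12, chr7:45831883-45878378, minus strand; 525 and 488 counts). Both were detected in each library, and neither group of values touched that of Grin2a or Grin2b. From replicate 1 to 2 the log2 ratio of the 7 astrocyte markers had a median of 0.09 (-0.05 to 0.29) beside 0.16 for Grin2c. That of the 7 GABAergic markers had a median of -0.11 (-0.23 to 0.10) beside -0.17 for Grin2d. Other lists moved by like amounts, with 0.09 (0.01 to 0.23) for oligodendrocyte and -0.05 (-0.13 to 0.19) for microglia markers. Hippocampal field markers gave 0.01 (-0.20 to 0.22) and thalamus markers 0.07 (-0.52 to 0.48). Of the ranges given here, Grin2c lay outside the GABAergic one only. Grin2d lay outside those of astrocyte, oligodendrocyte and microglia markers. A single ratio per gene between 2 libraries cannot assign the level of either gene to a cell type. Of the cerebellar granule cell markers, Gabra6 had 6 and 11 counts, while Neurod1 (740 and 759) and Pax6 (238 and 245) were detected. The part of these cells in the levels of Grin2c and Grin2d was not tested.

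Of the GluN3 genes, only Grin3a was detected. Grin3a, which is known for high levels in the young brain, stood at 13.6 and 13.5 TPM (ENSMUSG00000039579.15, chr4:49661611-49845744, minus strand; 2023 and 2074 counts). Grin3b, known from motor neurons, had 5 and 4 counts, or 0.07 and 0.06 TPM (ENSMUSG00000035745.9, chr10:79970715-79977190, plus strand). These few reads put Grin3b above 27.6% of protein-coding genes, many of which had none. Exact Poisson 95% intervals of its counts ran from 1.62 to 11.7 and from 1.09 to 10.2, and cover counting error only. Motor neuron markers were likewise near 0, as given above.

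In order of mean TPM the genes ran Grin1, Grin2a, Grin2b, Grin2c, Grin3a, Grin2d and Grin3b, in both quantifications. Of the 6 pairs of neighbours in this order, Grin2a and Grin2b alone had overlapping ranges. The widest gaps were between Grin2b and Grin2c, 8.23-fold, and between Grin2d and Grin3b, 73.1-fold, the latter resting on the 4 to 5 counts of Grin3b. Grin2c exceeded Grin3a by 1.29-fold and Grin3a exceeded Grin2d by 2.86-fold, with the higher gene above in both libraries. The ratio of Grin2a to Grin2b moved with the quantification and, in the first, with the transcripts counted. The second quantification put Grin2a 1.20-fold above Grin2b (227.0 and 253.1 against 186.0 and 215.4 TPM), and its ranges did not overlap with those of Grin2b. Counting only transcripts with a complete coding sequence gave 1.18-fold in the first quantification and 1.22-fold in the second.

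Summed over genes, GluN2 transcripts outnumbered those of Grin1. The 4 Grin2 genes together reached 303.2 and 334.6 TPM, which was 1.66 and 1.91 times the level of Grin1 in the same library, or 1.78 ± 0.177 (SD, n = 2). The second quantification gave 1.67 ± 0.194. These sums take in all annotated transcripts. In the first quantification those with a complete coding sequence held 87.2% of the TPM of Grin1, but 74.6% in Grin2a and 67.1% in Grin2b. In the far lower Grin2c and Grin2d they held 100% and 89.7%. Over complete coding transcripts alone the ratio to Grin1 is therefore lower. Grin3 genes together reached 13.6 TPM in each library, 0.0760 ± 0.00212 of the level of Grin1. These are ratios of RNA levels, and the protein was not measured.

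The subunit genes differed little between the libraries. The log2 ratio of replicate 2 to replicate 1, from counts scaled to library size, was -0.06 for Grin1, 0.11 for Grin2a, 0.08 for Grin2b, 0.16 for Grin2c, -0.17 for Grin2d and -0.03 for Grin3a. None of these 6 genes was 2-fold or more apart, against 0.516% of the 15509 genes tested. Tested genes reached 1 CPM or more on average, where CPM is a count divided by library size. The median size of the ratio was 0.09 over the 6 genes and 0.08 over all genes, a spread like that of other genes. Grin3b lay under the CPM minimum and gave -0.35 from its few counts. The authors' files also hold an interval for each TPM value, of a level that the files do not name, which covers how reads were counted and assigned but not variation between samples. For Grin1, Grin2a and Grin2c, 3 of the 6 genes, the intervals of the libraries did not overlap, against 4.38% of all genes tested. At a mean of 50 CPM or more they were 3 of 5, against 9.86%. Grin1 was the higher in replicate 1, with intervals from 174.7 to 181.7 and from 167.7 to 174.3 TPM, and the other 2 in replicate 2. Both Grin1 estimates lay above their own intervals, and that of replicate 2 (175.3) lay inside the interval of replicate 1, so this separation is not a firm one. Intervals of Grin2a and Grin2b overlapped each other within both libraries.

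**Figure D2:**
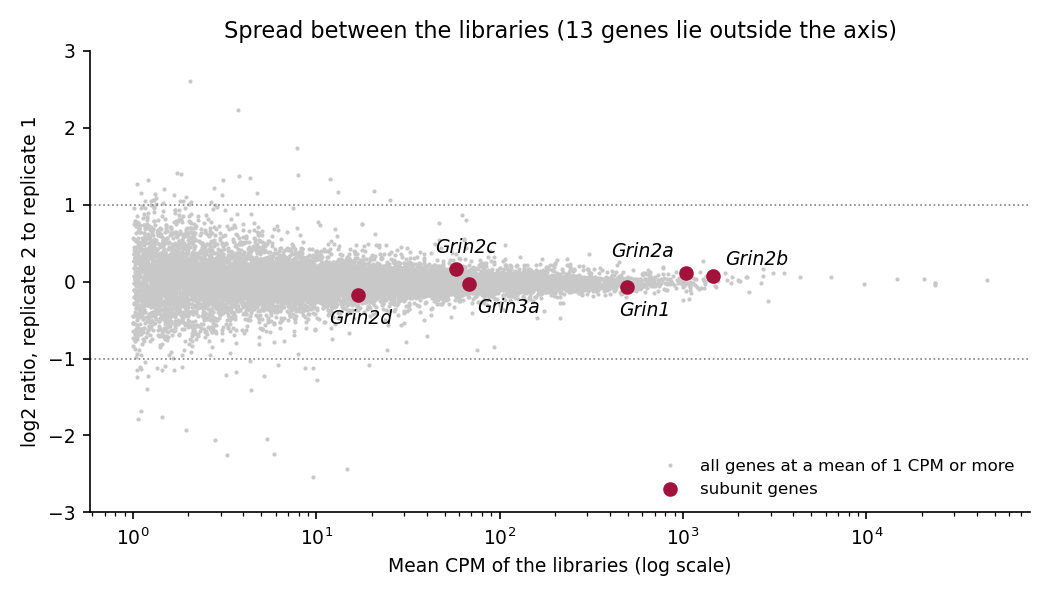
log2 ratio of replicate 2 to replicate 1 against the mean CPM (log axis) for every gene at a mean of 1 CPM or more, in grey, with 6 subunit genes in red; dotted lines mark 2-fold, and 13 genes lie outside the axis. Subunit genes lie between -0.17 and 0.16, inside the band of other genes of like abundance.

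Most Grin1 transcripts were coding, and they fell mainly into GluN1-1a and GluN1-4a, which carry opposite tails and both lack N1. The 8 coding forms held 87.2% ± 0.0357 of the TPM of Grin1, and 6 non-coding transcripts held the rest. GluN1-1a (Grin1-201), with C1 and C2, stood at 63.9 and 61.9 TPM, or 40.3% ± 0.295 of the 8 forms. GluN1-4a (Grin1-205), with C2' and no C1, stood at 41.0 and 41.3 TPM, or 26.3% ± 0.946. Both varied little between the libraries but moved with the quantification. The second put GluN1-1a at 31.3% ± 1.77 and GluN1-4a at 32.6% ± 1.00, in the other order by mean. The authors' intervals in replicate 2 of the first ran from 40.2 to 64.9 TPM for GluN1-1a and from 33.3 to 43.2 for GluN1-4a. GluN1-2a (Grin1-202) reached 17.4 and 24.8 TPM, and GluN1-1b (Grin1-204), the full form with every cassette, 6.68 and 6.01 TPM. GluN1-1b depended on the quantification as well. It held 4.06% ± 0.183 of the 8 forms in the first, where its interval in replicate 2 ran from 1.02 to 22.9 TPM. In the second it held 11.7% ± 0.723, at 28.0 and 29.3 TPM. TPM ran higher in the second quantification, with a mean of 784.4 against 511.6 for the 7 genes summed. GluN1-4b (Grin1-207) had 0 counts in both libraries and both quantifications. By counting alone up to 3 reads, 0.0218% of the reads on the 8 forms, could have been missed, but the authors' interval, which also covers how reads were assigned, reached 8.34 and 4.84 TPM.

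The remaining forms swung between the libraries in the first quantification. GluN1-3a (Grin1-206) had 1231 expected counts in replicate 1 and 1.67 in replicate 2, or 15.0 and 0.02 TPM. GluN1-3b (Grin1-208) went the other way, from 451.6 to 1599 counts, or 5.44 to 18.5 TPM. GluN1-2b (Grin1-203) went from 894.7 to 32.8 counts, or 10.1 to 0.36 TPM. Each of the 8 forms has a partner whose coding sequence differs in the N1 exon alone. The forms 3a and 3b have the same tail, as have 2a and 2b. This holds as well for 1a with 1b and 4a with 4b, and GluN1-1a, GluN1-1b and GluN1-4a varied little between the libraries. The partners also differ at the 5' end, with 209 untranslated bases in the 4 forms with N1 and 234 or 301 in the others. Whether the N1 exon or this 5' end bears on the swing was not tested. The second quantification gave the same forms at steady levels, with 1054 and 934.0 counts for GluN1-3a, 323.7 and 345.8 for GluN1-3b, and 537.3 and 633.5 for GluN1-2b. For all 8 forms the authors' intervals of the 2 libraries overlapped, so 0 of 8 were apart by that measure. Only 2.56% of all transcripts at a mean of 1 TPM or more were apart, so this count does not set these forms apart from others. In replicate 1 the interval of GluN1-2b reached 10.08 TPM, just below its estimate of 10.14. In replicate 2 the interval of GluN1-3a ran from 3.22 to 18.3 TPM and did not hold its estimate of 0.02, and that of GluN1-3b reached only 13.4 TPM, below its estimate of 18.5. The levels of these single forms are thus known no more closely than such intervals.

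**Figure D3:**
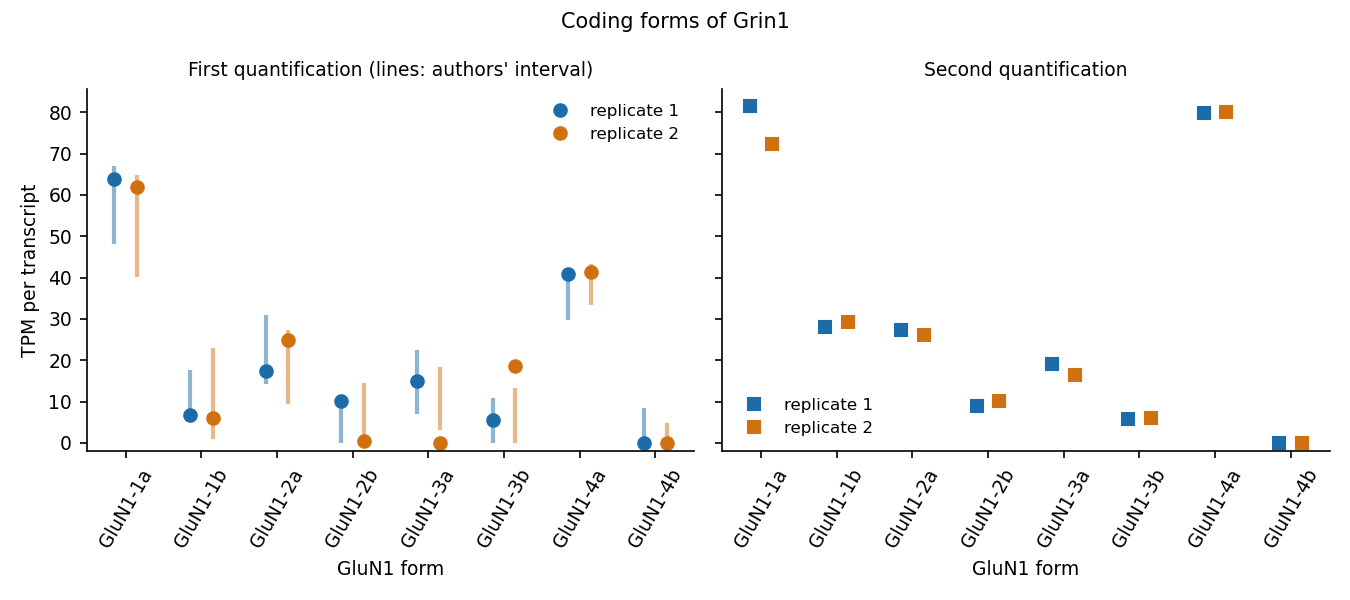
TPM of the 8 coding forms of Grin1 in each library, in the first quantification (left, circles, with lines for the authors' interval) and in the second (right, squares). GluN1-1a and GluN1-4a lead in both panels. GluN1-3a falls from 15.0 to 0.02 TPM between the libraries on the left and stays at 19.0 and 16.3 on the right. TPM ran higher in the second quantification (784.4 against 511.6 for the 7 genes summed), so levels are comparable within a panel only.

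Shares of single cassettes did not swing as some whole forms did in the first quantification. Their SDs between the libraries were 0.270 to 1.63 percentage points, against 4.33 to 6.63 for GluN1-2b, GluN1-3a and GluN1-3b. GluN1-2a stood at 3.76, and GluN1-1a, GluN1-1b and GluN1-4a at 0.183 to 0.946. The second quantification showed no such contrast, with 0.566 to 1.39 for the cassettes and at most 1.77 for any form. N1 was kept in 14.0% and 16.3% of Grin1 TPM (15.1% ± 1.63, SD, n = 2), among the 8 transcripts that span its place. The 4 annotated transcripts with N1 also have a shorter 5' untranslated region, 209 bases against 234 or 301. This share is thus one of whole annotated transcripts, and the part of reads on that 5' end in it was not tested. C1 was kept in 56.9% and 56.5% (56.7% ± 0.270, among 9 transcripts). C2 rather than C2' ended 61.5% and 60.9% (61.2% ± 0.459, among 8). So transcripts with N1 held the smaller share of this TPM, and those with C1 and those with C2 each held the larger share. The second quantification gave 18.0% ± 1.33 for N1, 52.5% ± 1.39 for C1 and 57.8% ± 0.566 for C2, on the same side of an even split for all 3.

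The tail end differed with C1 in both quantifications. Among forms with C1, 22.4% and 21.4% ended in C2', and among forms without C1, 59.8% and 62.2% did. The second quantification put these shares at 18.2% ± 0.319 and 68.8% ± 0.0373. C2' was thus the minor end with C1 and the major end without it, and the gap was far larger than the spread between the libraries. As pairs, C1 with C2 made up 44.4% ± 0.111 of the 8 forms, C2' without C1 26.3% ± 0.946, C2 without C1 16.8% ± 0.571 and C1 with C2' 12.5% ± 0.487. These 4 pairs are told apart by reads across a single junction each, which are written here with the end of the upstream exon in lower case and the start of the last exon in capitals.
C1 kept, to C2: tccaaagacacgAGCACCGGGGGT
C1 kept, to C2': tccaaagacacgCAGTACCATCCC
C1 skipped, to C2: aagaacctgcagAGCACCGGGGGT
C1 skipped, to C2': aagaacctgcagCAGTACCATCCC

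The pairing of N1 with C1 was not settled by these files. Among forms with N1, C1 was kept in 54.4% of TPM in replicate 1 and 98.6% in replicate 2, and among forms without N1 in 57.5% and 48.4%. The libraries thus disagreed on whether forms with and without N1 differ in C1 at all. In the second quantification the shares were 79.0% and 77.5% with N1 against 48.4% and 45.5% without, with C1 more frequent beside N1 in both libraries. In the mRNA 2019 bases lie between the N1 and C1 exons. The gap between length and effective length implies 100-base reads in the first quantification. In the second it is 337.2 and 339.1 bases, which in that layout reflects the mean fragment, so a fragment of this size does not reach from N1 to C1. Whether this distance accounts for the swing of single forms was not tested. The junctions by which N1 is skipped or kept are as follows, with the downstream exon in capitals.
N1 skipped: cgtgagtccaagGCAGAGAAGGTG
N1 kept: cgtgagtccaagAGTAAAAAAAGG

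**Figure D4:**
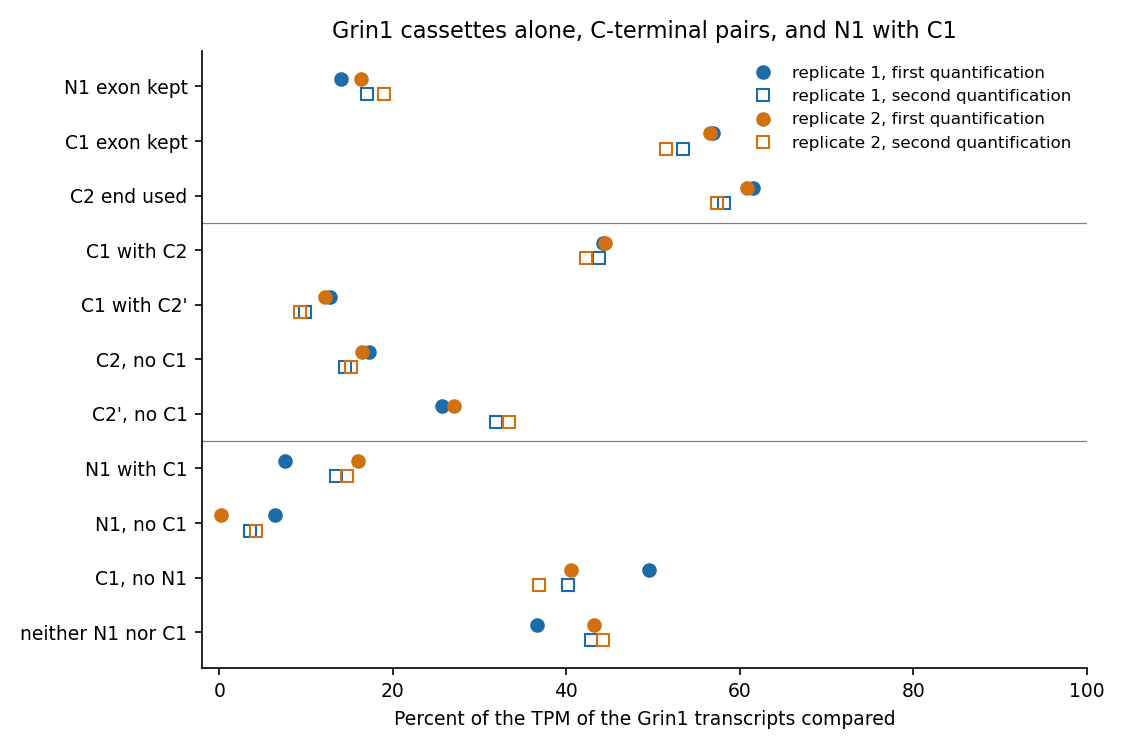
Percent of Grin1 TPM with each cassette (top), each pair of C1 and tail end (middle) and each combination of N1 and C1 (bottom), for each library (colour) in the first (circles) and second (squares) quantification. Points of the libraries lie close together at the top and in the middle, for example 44.3% and 44.4% for C1 with C2, and apart at the bottom in the first quantification, for example 6.36% and 0.235% for N1 without C1.

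Grin2a and Grin2b were read mainly from transcripts with very long 3' ends. For Grin2a, Grin2a-206, whose 3' untranslated region has 9929 bases, held 70.3% ± 0.298 of the TPM of the pair it forms with Grin2a-202, whose region has 86. Grin2b-201, with 18865 untranslated bases, held 75.3% ± 0.120 of the TPM of its pair with Grin2b-202, which has 2272. These shares were 64.3% ± 0.0884 and 78.7% ± 0.295 in the second quantification. Of the gene's own TPM the long forms held 52.3% ± 0.875 and 50.5% ± 1.59, while of its reads they held 82.2% and 88.5%. The coding sequence is the same within each pair, 4392 bases in Grin2a and 4446 in Grin2b.

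In both GluN2 genes transcripts without a complete coding sequence held a larger part of TPM than of reads. In Grin2a complete coding transcripts held 75.3% and 73.8% of TPM but 94.0% of counts. Its retained-intron transcripts Grin2a-204 and Grin2a-203 held 11.4% ± 0.507 and 9.34% ± 0.765, and Grin2a-205, a non-coding transcript of 602 bases, 4.72% ± 2.39. The second quantification kept Grin2a-204 at 11.2% ± 0.638 but put Grin2a-203 at 0.538% ± 0.462 and Grin2a-205 at 11.0% ± 3.45. In Grin2b complete coding transcripts held 68.5% and 65.7% of TPM and 97.5% of counts. The rest of Grin2b was mainly on the short fragments Grin2b-206 (601 bases), at 10.1% and 18.3%, and Grin2b-204 (703 bases), at 10.5% and 3.36%, and on Grin2b-205 (2461 bases, with a shorter coding sequence of 1011 bases), at 9.88% and 9.02%. The second quantification put Grin2b-204 at 15.4% and 11.3% and Grin2b-205 at 4.51% and 2.40%. TPM divides by length, so on transcripts this short a few reads weigh heavily: 150.2 and 313.6 counts gave Grin2b-206 13.8 and 27.6 TPM. The second quantification gave the same transcript 0 counts in replicate 1 and 129.2 in replicate 2.

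Grin2c was split between transcripts with different starts. Grin2c-202, with a longer 5' untranslated part (773 against 157 bases) and the same coding length, held 48.2% and 46.1% of TPM, and Grin2c-201 held the rest. It led with 63.4% and 60.7% in the second quantification, so that the leading transcript differed between the quantifications. All Grin2c transcripts were complete coding ones. In Grin2d, Grin2d-201 held 60.8% ± 3.42, Grin2d-203 28.9% ± 5.98 and the short fragment Grin2d-202 10.3% ± 2.57.

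Grin3a was read mostly as the form without the 60-base insert. The long form (Grin3a-202) held 22.9% of the TPM of the pair in replicate 1 and 34.3% in replicate 2 (28.6% ± 8.05, SD, n = 2), from 434.6 and 655.0 counts. The second quantification gave 19.5% and 36.3%. Both put the insert in the minor form in each library and higher in replicate 2, with a spread too wide to place its share closely, and the authors' intervals of the long form overlapped (1.13 to 4.27 and 2.05 to 5.53 TPM). Grin3a-203, a non-coding transcript, held 13.2% ± 1.80 of the gene. The reads of Grin3b all went to Grin3b-201 in the first quantification.

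**Figure D5:**
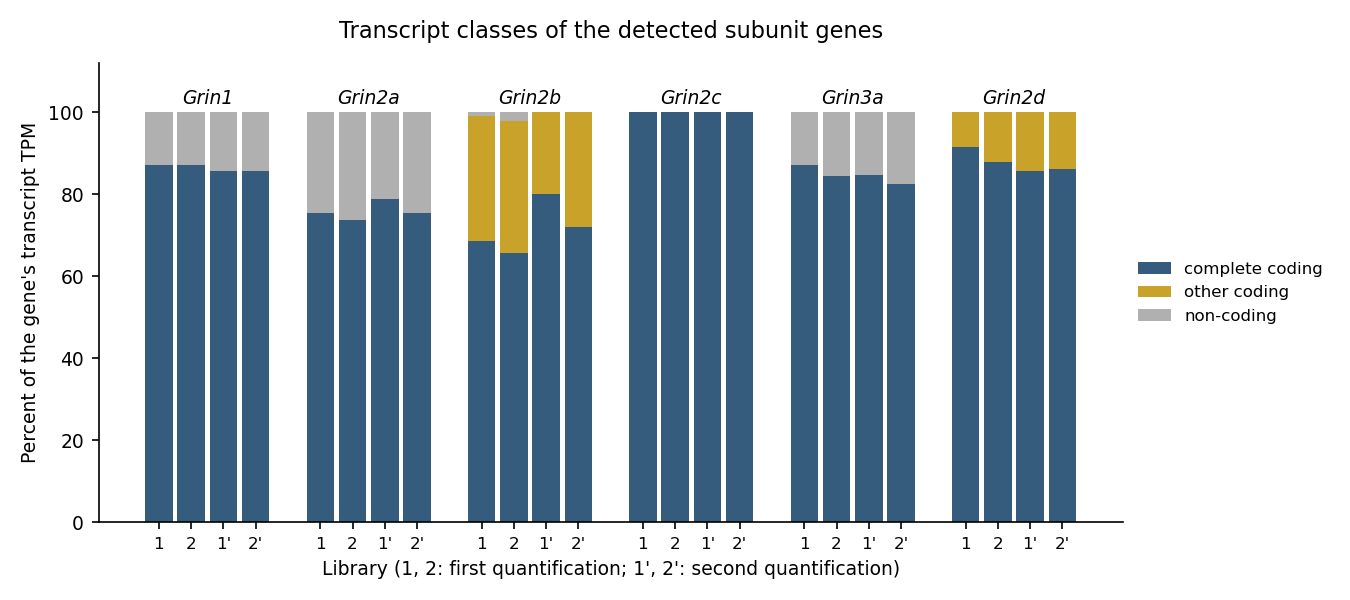
Percent of each gene's transcript TPM on complete coding transcripts (blue), other annotated coding transcripts (yellow) and non-coding ones (grey), stacked for each library in the first (1, 2) and second (1', 2') quantification. Complete coding transcripts hold 87.2% in Grin1, 100% in Grin2c and 68.5% and 65.7% in Grin2b in the first quantification.

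Across all transcripts of the 7 genes the differences between the libraries were concentrated in a few forms. In the first quantification 7 of the 30 subunit transcripts at a mean of 1 TPM or more were 2-fold or more apart, against 10.2% of 40526 transcripts overall. They were GluN1-2b, GluN1-3a, GluN1-3b, Grin2a-205 and the fragments Grin2b-203, Grin2b-204 and Grin2b-207. In the second quantification 2 of 29 were, Grin2a-203 and Grin2b-206, against 14.3% of 52671. By the authors' intervals 4 of the 30 were apart, against 2.56% overall: the long forms Grin2a-206 and Grin2b-201, both higher in replicate 2, and the non-coding Grin1-211 and Grin1-214, which went in opposite directions. For both long forms the estimates lay above their own intervals in each library (Grin2b-201 at 70.6 TPM against 67.7 to 69.3, and 74.7 against 71.7 to 73.4), so these calls carry the same doubt as that of Grin1. No coding form of Grin1 was among these 4. The 2.56% covers transcripts of every level from that minimum up. For genes the share was 4.38% at 1 CPM or more and 9.86% at 50 CPM or more. No share at like abundance was taken for transcripts.

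The leading transcripts were Grin1-201, Grin2a-206, Grin2b-201, Grin2c-201, Grin2d-201, Grin3a-201 and Grin3b-201, and in each library alone the first quantification led with the same 7. In the second quantification 5 of the 7 genes kept their leader. The exceptions were Grin2c, as above, and Grin1, where GluN1-1a led in replicate 1 (27.9% against 27.3% of the gene) and GluN1-4a in replicate 2 (28.6% against 25.8%), a near tie.

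Known partners of the receptor were abundant in the same libraries. All 12 scaffolds and membrane partners were detected, with a median of 81.6 ± 1.89 TPM. They were led by Dlg4, the scaffold PSD-95 that binds GluN2 tails (354.8 and 343.8 TPM), Shank1 (269.3 and 272.5) and Dlgap1 (207.7 and 210.5). All 9 kinases and phosphatases that act on the receptor were detected, with a median of 58.8 ± 0.403 TPM. Camk2a, the kinase subunit that binds GluN2B after calcium entry, stood at 1310 and 1394 TPM, above every subunit gene, followed by Ppp3ca, a calcineurin subunit (489.7 and 535.3), and Camk2b (429.0 and 448.7). All 6 genes of receptor transport were detected, with a median of 39.2 ± 0.951 TPM, led by Lin7b (55.3 and 56.9), Lin7c (45.1 and 49.2) and Apba1 (47.0 and 46.6).

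Genes that handle the co-agonists, some by making them and some by removing them, had a lower median than the scaffolds and membrane partners. Of 9 genes for glycine and D-serine handling 7 were detected, with a median of 14.6 ± 0.205 TPM over the 9. Srr, the enzyme that makes D-serine, stood at 33.9 and 33.3 TPM, Phgdh, the first enzyme of serine synthesis, at 30.3 and 32.0, and Slc7a10, a D-serine transporter, at 22.8 and 19.5. Dao, which degrades D-serine (1 and 2 counts), and Slc6a5, the neuronal glycine transporter (4 and 2 counts), fell below the minimum and were named after their values were seen. Among splicing regulators of neuronal exons 12 of 12 were detected, with a median of 95.2 ± 1.49 TPM, led by Celf2 (205.9 and 208.8), Rbfox1 (155.6 and 161.5) and Hnrnph1 (118.2 and 117.2). No gene of these 5 lists above the CPM minimum was 2-fold or more apart between the libraries, against the 0.516% of all genes, and their link to the Grin1 cassettes was not tested.

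The subunit genes lie on 7 different chromosomes and span from 6.48 kb (Grin3b) to 460 kb (Grin2b). For 6 of the 7 another annotated gene overlaps, 12 in all, 9 of them on the opposite strand. Most of these were silent or nearly so: Grin1os, antisense to Grin1, had 1 count in each library. The overlaps that carried reads touched low members. Grin2d overlaps Kdelr1 (863 and 894 counts) and Gm45441 (106 and 92), and Grin3b overlaps Tmem259 (1998 and 2114), all on the opposite strand. Whether the counting used strand is not stated in the labels or headers, so the levels of Grin2d and Grin3b are uncertain to that extent.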

How the data were processed

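Total RNA from 2 hippocampus libraries was analysed. Per the file headers and the accompanying notes (mm10, M21 annotation), the authors deposited for each library gene and transcript tables with an expected count, a TPM value and a score (bounds of a TPM interval, and an SD of the count), in the column layout of RSEM, called the first quantification. The deposited transcript tables also give a percent of the gene's TPM, which was recomputed here from TPM. Further deposited transcript tables hold an estimated count and TPM in the layout of kallisto, called the second quantification and summed per gene. The aligner and counter are not given in the sources used here. Both are estimates, so sharing of reads among transcripts moves form levels more than gene levels.

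Coordinates, exons and transcript sequences came from GENCODE M21. A complete coding transcript has an annotated start and ends at a main stop codon of its gene, for Grin1 either of the C2 and C2' stops. Cassettes were found from exon coordinates, and a share is the TPM on transcripts that hold the piece over that on all transcripts that span it. Ratios of replicate 2 to replicate 1 used expected counts rounded for scaling, with 0.5 added, over library totals times TMM factors (edgeR 4.0.16, R 4.3.3). They cover genes at a mean of 1 CPM or more, called apart at 2-fold. Spike-in sequences (97 entries, 0.378% and 0.368% of counts) and 26248 numbered entries without a gene (4 and 6.99 counts) stayed out of totals and ratios. Values are means ± SD of the 2 libraries. Tables and figures were made in Python 3.11.15 with pandas 2.3.3, matplotlib 3.10.9, numpy 2.4.6 and scipy 1.17.1. On simulated data, the ratio called 194 of 194 genes shifted by 1.5 (log2) and 4 of the others among 15496. The shift lay above the 2-fold call and the simulated spread was small, whereas 80 of 15509 genes were called in the real libraries. This run thus checks the calculation only and gives no error rate for the real data.

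The text names the 7 subunit genes, their transcripts at 5% or more of the gene's TPM, the 3 highest members of each partner list and members with no count in either library. Other names in the text were added after their values were seen. Partner lists were scaffolds and membrane partners, kinases and phosphatases, glycine and D-serine handling, transport, and splicing regulators. Marker lists were hippocampal field, GABAergic neuron, astrocyte, oligodendrocyte, microglia, cerebellar granule cell, motor neuron and thalamus. The members and lists were chosen with earlier results of these data known. Alternatives were other detection minimums, DESeq2 1.42.0 size factors or library totals, other count filters and pseudocounts, shares of expected counts, protein-coding transcripts alone, each replicate left out and the second quantification. Complete coding transcripts alone, and the second quantification for splice events outside Grin1, were added after seeing the data, as was the comparison of the authors' intervals.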

Additional observations from a re-analysis of the deposited data

How the results depend on the processing

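The 6 detected genes stayed 6 under a minimum of 0.5 TPM, in the second quantification and in either library alone, and became 5 at 5 TPM and 7 with any count. Subunit genes 2-fold or more apart stayed at 0 under all 6 alternatives run for scaling, filter, pseudocount and quantification. The Grin1 share of summed TPM (35.0%) was 15.9% of expected counts and 39.1% over complete coding transcripts, and 33.5% to 36.6% leaving out either replicate. The log2 ratio of Grin2b to Grin2a (-0.09) turned to 0.48 with expected counts, which are not divided by length. It was -0.26 in the second quantification, -0.24 over complete coding transcripts, -0.28 over these in the second quantification, -0.0852 with 1 added to TPM, and -0.0859 to -0.0856 leaving out either replicate. In the second quantification the shares were 18.0% for N1, 52.5% for C1 and 57.8% for C2; the cause was not tested. As shares of expected counts C1 was 58.1% and C2 63.3%. Leaving out either replicate gave 14.0% to 16.3% for N1, 56.5% to 56.9% for C1 and 60.9% to 61.5% for C2. The leading transcript stayed the same in 5 of 7 genes in the second quantification, in 6 by expected counts and in 7 leaving out either replicate. No paired analysis was possible because the series holds 1 group. The series holds no contrast of conditions to test, and the depth leaves Grin3b at 4 to 5 counts.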
